A study of Mus musculus with 12 samples.

Results

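The genes described here encode the cytosolic initiation and elongation factors of protein synthesis and their closest regulators. They are the rows of the count table whose symbol begins with Eif1, Eif2, Eif3, Eif4, Eif5, Eif6 or Eef, leaving out the eIF2 kinases (Eif2ak), the X- and Y-linked copies of the eIF2 gamma gene (Eif2s3x and Eif2s3y) and pseudogenes. The rule uses names only and finds 59 of 24328 rows. Of these, 56 passed the filter on low counts and were tested. The remaining 3 (Eif3j1, Eif3j2 and Eif4e1b) were listed at 0 in every library, and Eif3j1 and Eif3j2 are near-identical copies of each other.

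Translation begins when eIF2, loaded with initiator tRNA and GTP, joins the small ribosomal subunit together with eIF1, eIF1A, eIF3 and eIF5. The cap-binding protein eIF4E, the scaffold eIF4G and the helicase eIF4A recruit the messenger RNA, and eIF5B joins the large subunit at the start codon. The eEF1 complex then delivers each aminoacyl-tRNA and eEF2 moves the ribosome along by one codon. The pathway is braked at known points: stress kinases phosphorylate eIF2 and so block its exchange factor eIF2B, 4E-binding proteins hold eIF4E until mTORC1 phosphorylates them, and eEF2 kinase switches off eEF2.

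RNA was measured in FACS-sorted microglia, the resident macrophages of the brain, from WT mice of the Balb/c strain, with 12 libraries in 3 groups of 4 mice. Control mice were untransplanted and not irradiated, whereas both recipient groups had lethal irradiation, 5000000 bone marrow cells and 300000 T cells before sampling on day 14. Irradiation, transplantation and their aftermath therefore cannot be told apart in comparisons with control. The sources used here do not give age or the donor strain. Library totals ran from 32652208 to 46126118 counts. Levels are CPM (counts relative to the library total, adjusted by TMM factors) and changes are log2 fold changes ± SE. Rose or fell means an adjusted p under 0.05 in edgeR's quasi-likelihood test over 12695 genes. Libraries of a comparison overlap unless all 4 of one group lie above or below all 4 of the other.

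All 11 microglia markers were detected in every group, and their summed level was 48100 to 54800 CPM in control, 46700 to 49600 CPM in syngeneic and 35000 to 36600 CPM in allogeneic libraries. Other cell types moved with the groups at lower levels. The summed 10 monocyte and engrafted macrophage markers were 18.7 to 21.8, 44.6 to 80.1 and 320 to 483 CPM in the same order, with Chil3 and Vcan at 0 in the syngeneic group. These markers did not move as one. In allogeneic against control Ly6c2, Ms4a7, Clec12a, Plac8, Ms4a4c and Fn1 rose, F13a1 was not called and Ccr2 fell (-1.25 ± 0.39, adjusted p = 0.0112). The 7 choroid plexus markers summed to 21.2 to 143, 1420 to 2460 and 415 to 785 CPM. The 7 NK cell markers reached 21.6 to 36.3 CPM in allogeneic libraries against at most 1.97 CPM elsewhere, with Ncr1, Prf1 and Gzma at 0 in all 3 groups. Astrocyte markers (6) summed to 1.47 to 7.91, 24.8 to 41.1 and 25.5 to 41.2 CPM, while T cell markers (8 in the table) stayed at or below 4.24 CPM. The part of these cells in the results below was not tested, and a change in the number of cells of a type cannot be told apart from a change in RNA per cell.

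Start sites were examined because many messenger RNAs of the translation machinery begin with a terminal oligopyrimidine (TOP) tract, a cytosine followed by a run of pyrimidines, through which mTORC1 controls their translation. In the RefSeq promoter table (build GRCm38.p6), which holds 59 annotated starts for 45 of the 59 genes, 10 starts (16.9%) had a C followed by at least 4 pyrimidines within 5 bases of the annotated start. The share was 18.3% over all 32851 promoters and 41% over 78 starts of ribosomal protein genes, so the share among the factor genes was close to that of promoters at large. The sequences below run from 15 bases before the start to 14 after it, 5′ to 3′ on the gene's strand, with the pyrimidine tract in capitals. Eif3f and Eef1a1 are among the genes with the largest rises between the transplant groups. Eif2b2 is one that fell in syngeneic against control, and Eef2 is a classical TOP gene with no match at this annotated start.
Eif3f (chr7:108934400-108934429, plus strand): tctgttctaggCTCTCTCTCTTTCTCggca
Eef1a1 (chr9:78481710-78481739, minus strand): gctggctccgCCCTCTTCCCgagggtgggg
Eif2b2 (chr12:85219466-85219495, plus strand): tttcaccgagcggaagttgaCCTCTCTCgg
Eef2 (chr10:81176616-81176645, plus strand): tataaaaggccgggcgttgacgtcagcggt
These are genomic letters at annotated starts, which need not be the starts used in microglia: in Eef1a1 the letters TATATAA begin 23 bases after the annotated start. Among tested genes with an annotated start, 3 of 9 with a TOP-like tract and 8 of 35 without one rose in allogeneic against syngeneic libraries, where 10.1% of all genes did.

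A second search looked for CCGGAAG on either strand, the core letters bound by ETS-family transcription factors, in the 300 bases from 250 before each start to 50 after it. It was found at 19 of the 59 starts (32.2%) against 8.86% of all promoters, which include promoters of genes silent in these cells; this search was chosen after the results were known. The genes with a whole match within the 30 bases around a start are shown with the motif in capitals, once each: one that rose in both transplant groups (Eef1b2), one called higher in allogeneic than in syngeneic libraries (Eif4e2), and Eif2b4 and Eif4enif1, which fell in syngeneic against control. In Eif4enif1 the letters are those of the opposite strand.
Eef1b2 (chr1:63176816-63176845, plus strand): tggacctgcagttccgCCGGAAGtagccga
Eif2b4 (chr5:31193125-31193154, minus strand): cgggacccagtgcacgCCGGAAGttgtagt
Eif4e2 (chr1:87213899-87213928, plus strand): agcgcctcgccagccaaCCGGAAGtagccg
Eif4enif1 (chr11:3203004-3203033, plus strand): ccctgcccttCTTCCGGaggagcctctagc
The motif thus lay at the starts of genes that moved in opposite directions.

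The first question is what syngeneic transplantation with irradiation does to these genes. Against control, 33 of the 56 tested genes rose (58.9%) and 7 fell (12.5%), with a median log2 fold change of 0.45, where 26.4% of all 12695 genes rose and 25.6% fell (52.1% in all) with a median of -0.028. In 42 genes the 4 syngeneic libraries lay entirely above or below the 4 control libraries, against 50% of all genes. The second question, what an allogeneic graft adds, compares the transplant groups. There 18 genes rose (32.1%) and 3 fell (5.36%), with a median of 0.18, against a background of 10.1% higher, 6.38% lower (16.5% in all) and a median of -0.015. In 24 genes the libraries did not overlap, against 20.7% of all genes.

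Allogeneic against control, 36 genes rose (64.3%) and 8 fell (14.3%), with a median of 0.60, where 28.2% of all genes rose and 29.1% fell (57.3% in all) with a median of -0.069. In 39 genes the libraries did not overlap, against 53.8% of all genes. The comparisons share libraries and are not independent of each other. The split depends on how libraries are scaled. With library totals in place of TMM factors, the median of all genes between the transplant groups moved to -0.22. There 11 factor genes were higher and 8 lower, where 6.65% of all genes were higher and 16.6% lower. In allogeneic against control the median moved to -0.44, with 27 factor genes higher and 11 lower, against 19.3% and 41.4% of all genes. For syngeneic libraries against control it was -0.20, with 28 higher and 8 lower, against 21.4% and 31.3% of all genes.

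**Figure D1:**
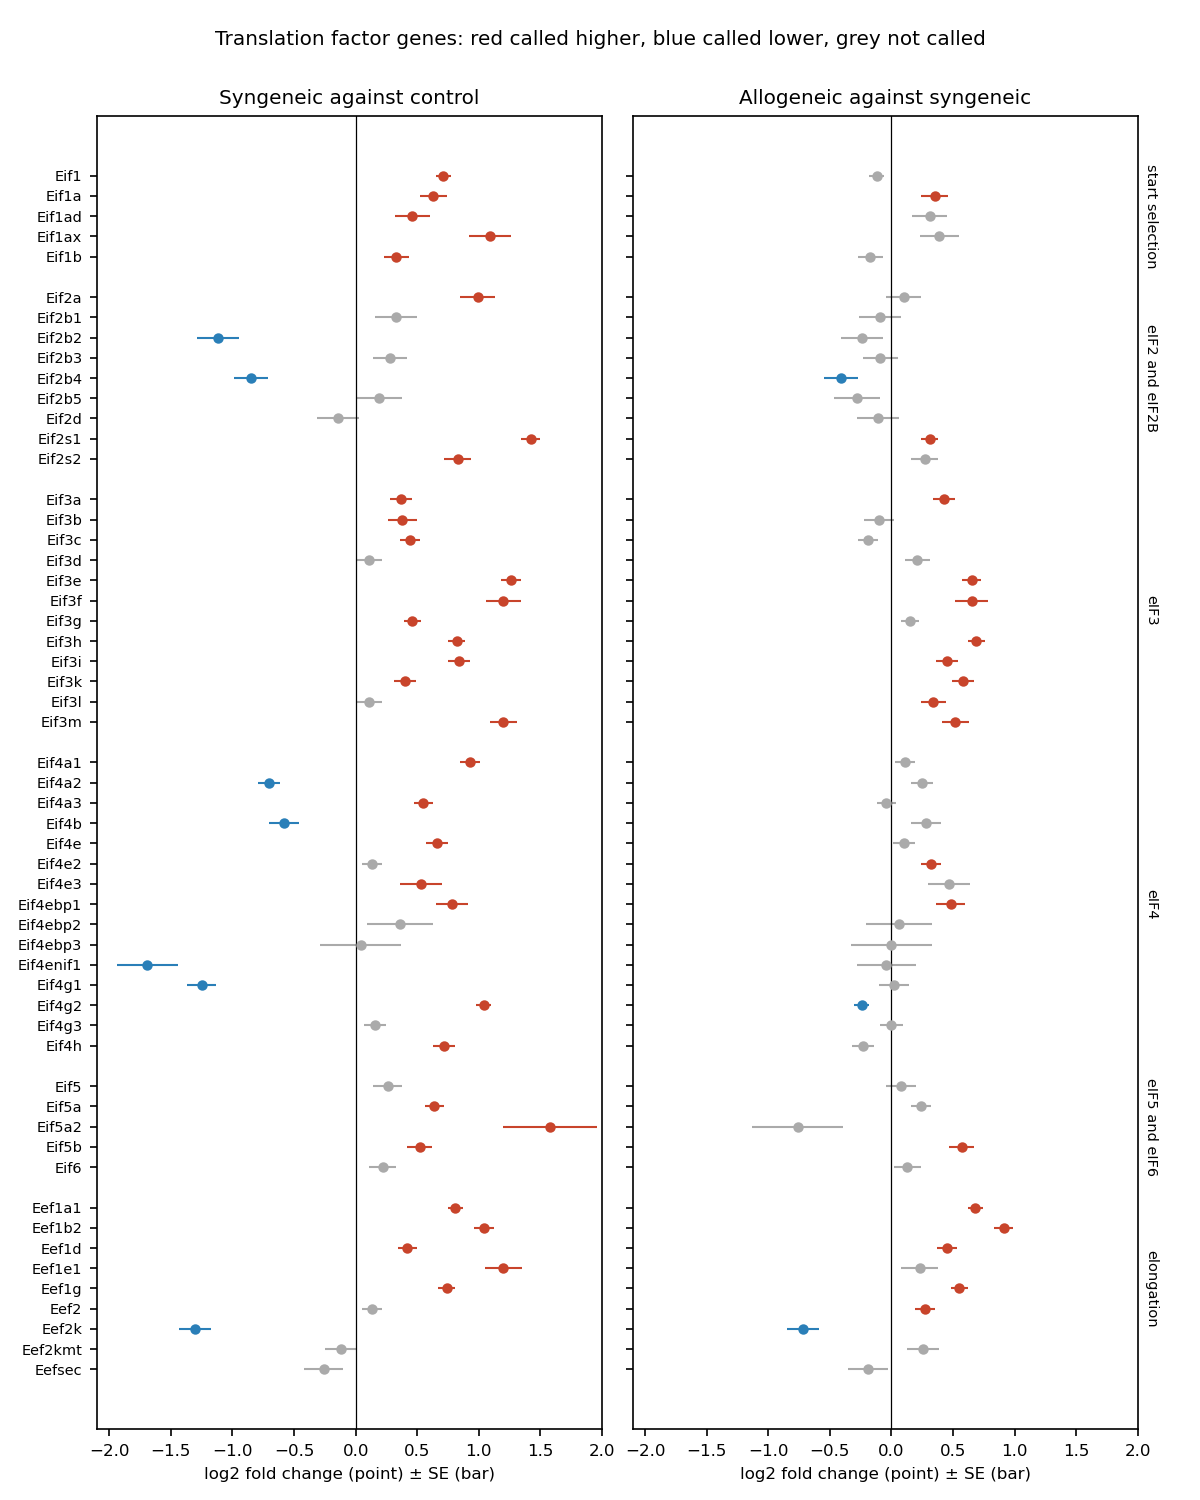
Log2 fold change (points) ± SE (bars) of each tested factor gene except Eef1a2, in syngeneic against control (left) and allogeneic against syngeneic (right), grouped by role; red genes were called higher, blue genes lower and grey genes neither. On the right, 8 of 12 eIF3 genes are red, 12 of 15 eIF4 genes are grey, and Eef2k is blue in both panels.

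Summed over the 59 genes, the level was 7896 to 8540 CPM in control, 12040 to 12360 CPM in syngeneic and 14850 to 15680 CPM in allogeneic libraries, with no overlap between groups. Without Eef1a1, the most abundant gene of the set, the sums were 6435 ± 167, 9129 ± 116 and 10330 ± 264 CPM (SD, n = 4). The share of all counts, which needs no scaling factor, was 0.925 ± 0.00993% in control, 1.23 ± 0.0145% in syngeneic and 1.33 ± 0.0239% in allogeneic libraries. Eef1a1 held 25.0 ± 0.261% of the set's counts in syngeneic and 32.1 ± 0.713% in allogeneic libraries. Without Eef1a1 the set's share of all counts overlapped between these groups, and its mean was not higher in allogeneic libraries. The steps were uneven between roles. Elongation genes summed to 3127 ± 187, 4701 ± 75.3 and 7082 ± 214 CPM, and eIF3 genes to 1246 ± 47.0, 1880 ± 62.6 and 2489 ± 59.2 CPM. The eIF4 genes, in contrast, stood at 2076 ± 57.3, 2960 ± 77.9 and 2866 ± 86.0 CPM, so the syngeneic and allogeneic sums differed by about their spread, and the start selection genes at 836 ± 54.1, 1340 ± 58.2 and 1301 ± 42.0 CPM.

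The elongation factors included Eef1b2, the gene with the largest rise between the transplant groups. Of 10 tested genes, 5 rose (50%) and 1 fell (10%) between the transplant groups, against 10.1% and 6.38% of all genes. In syngeneic against control 5 rose (50%) and 1 fell (10%), against 26.4% and 25.6% of all genes. When allogeneic libraries were set against control 6 rose (60%) and 2 fell (20%), against 28.2% and 29.1% of all genes. Eef1a1, the GTPase that carries aminoacyl-tRNA to the ribosome, stood at 1895, 1693, 1800 and 1550 CPM in control, 3094, 3056, 3022 and 3016 CPM in syngeneic and 4782, 4752, 4978 and 5059 CPM in allogeneic libraries. The groups formed a rising order without overlap (syngeneic against control 0.81 ± 0.06, adjusted p = 1.93e-09; allogeneic against syngeneic 0.68 ± 0.06, adjusted p = 6.34e-08). Within the set its share of counts was 21.2 ± 1.11% in control, 25.0 ± 0.261% in syngeneic and 32.1 ± 0.713% in allogeneic libraries.

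The exchange factor subunits of eEF1, which reload eEF1A with GTP, moved the same way. Eef1b2 (eEF1B alpha) was at 121, 105, 101 and 136 CPM in control, 235, 247, 244 and 228 CPM in syngeneic and 441, 439, 453 and 456 CPM in allogeneic libraries. Every allogeneic library exceeded every syngeneic one, and the change of 0.91 ± 0.08, adjusted p = 1.62e-07 was the largest rise of the set in that comparison. Eef1g, the structural gamma subunit, rose by 0.74 ± 0.07 in syngeneic against control and 0.55 ± 0.07 in allogeneic against syngeneic libraries, and Eef1d, the delta subunit, by 0.42 ± 0.08 and 0.45 ± 0.08. A correction fitted to GC content and transcript length (the GC and length offset) moves the first Eef1d value to 1.11. Eef1a1, Eef1b2, Eef1d and Eef1g kept their calls in all 3 comparisons under every alternative tried. Eef1a1 has many processed pseudogenes, and the sources used here do not give the handling of shared reads. Eef1d shares exon sequence with Naprt on the same strand. Eef1e1, an auxiliary protein of the tRNA synthetase complex, stood at 26.2, 19.1, 23 and 30.2 CPM in control, 56.9, 63, 48.2 and 58.9 CPM in syngeneic and 77.1, 58.8, 72.2 and 57.9 CPM in allogeneic libraries. It rose in syngeneic against control (1.20 ± 0.15, adjusted p = 1.96e-06), while allogeneic against syngeneic gave 0.23 ± 0.15, adjusted p = 0.343.

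Eef2, the translocase, stood at 804, 718, 832 and 769 CPM in control, 784, 779.6, 847 and 999 CPM in syngeneic and 981, 1011, 1058 and 1064 CPM in allogeneic libraries. Control and syngeneic libraries overlapped (0.13 ± 0.08, adjusted p = 0.179). The GC and length offset places that change at 0.87 (adjusted p = 1.45e-08), above the 0.58 of Eef1a1 and the 0.75 of Eef1b2 under the same offset, so the order of these genes depends on it. In the fit without the offset the allogeneic rise over syngeneic was 0.27 ± 0.08, adjusted p = 0.0178, with overlapping libraries. That call is lost when syngeneic 1, syngeneic 2 or allogeneic 4 is left out (adjusted p = 0.0685, 0.0705 and 0.0511), and with library totals it becomes 0.07 (adjusted p = 0.564).

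Eef2k, the kinase that inactivates eEF2, went the other way. It was at 132, 133, 162 and 140.3 CPM in control, 46.2, 63.6, 60.6 and 59.4 CPM in syngeneic and 32.9, 38.4, 28.2 and 39.6 CPM in allogeneic libraries. The groups were in falling order without overlap, with -1.30 ± 0.13, adjusted p = 1.04e-07 for syngeneic against control and -0.72 ± 0.13, adjusted p = 0.00041 for allogeneic against syngeneic. Allogeneic against control gave -2.03 ± 0.13, adjusted p = 2.08e-10, the largest fall of the set there. Eef2kmt, which methylates eEF2, gave 0.26 ± 0.13, adjusted p = 0.214 in allogeneic against syngeneic. Eefsec, the selenocysteine elongation factor, fell in allogeneic against control (-0.45 ± 0.16, adjusted p = 0.0245). The GC and length offset reverses its sign (0.29), and the call is lost without control 1, control 4, allogeneic 2 or allogeneic 3 (adjusted p = 0.0643 to 0.0848). Eef1a2, the paralog of neurons and muscle, was near 0, at 0, 0.266, 0.0196 and 0 CPM in control, 0.446, 0.0215, 0.356 and 0.607 CPM in syngeneic and 0, 0.214, 0.114 and 0.235 CPM in allogeneic libraries. Control 2 sets its control mean, and no fold is given.

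**Figure D2:**
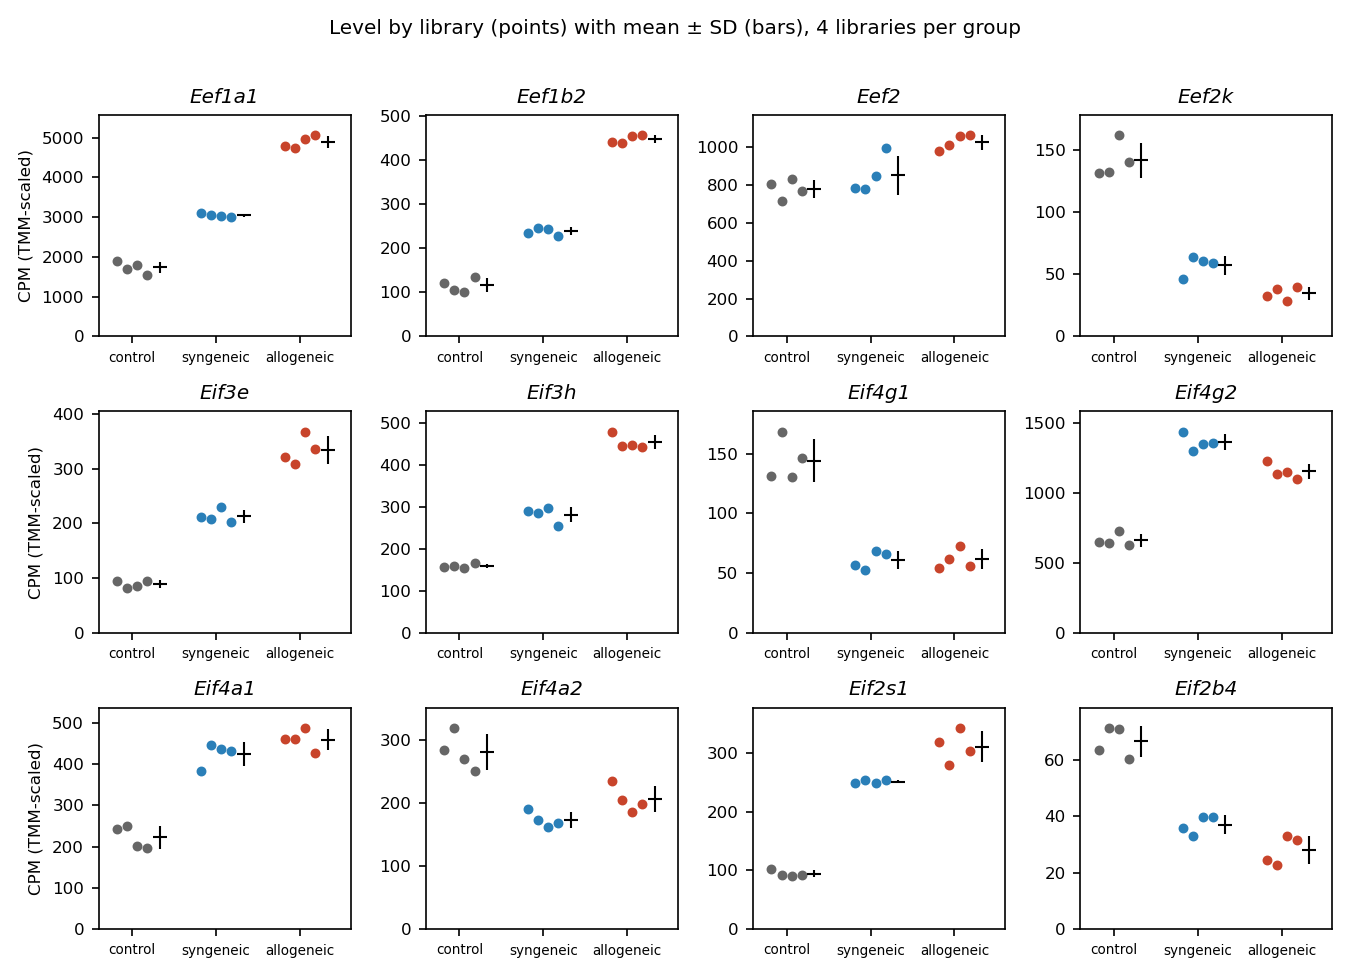
CPM (TMM-scaled) of 12 factor genes in each library (points), with mean ± SD of the 4 libraries of each group (bars), in control, syngeneic and allogeneic microglia. Eef1a1 and Eef1b2 step up at both stages, Eef2k steps down at both, and Eif4g1 steps down between control and syngeneic only.

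The 12 tested eIF3 genes encode the largest initiation factor, which bridges the small subunit and eIF4G. In allogeneic against syngeneic libraries 8 of the 12 rose (66.7%, against 10.1% of all genes) and 4 did not pass. Their median was 0.44, the highest of the role groups. Against control, 10 rose in syngeneic (83.3%, median 0.45) and 11 in allogeneic libraries (91.7%, median 0.89). The shares of all genes that rose there were 26.4% and 28.2%. Eif3e stood at 94.9, 81, 84.7 and 95.1 CPM in control, 212, 208, 230.3 and 204 CPM in syngeneic and 322, 309, 368 and 336 CPM in allogeneic libraries, with groups in rising order and no overlap. Syngeneic against control gave 1.26 ± 0.08, adjusted p = 4.15e-10, and allogeneic against syngeneic 0.65 ± 0.08, adjusted p = 7.96e-06. Eif3f, an MPN-domain subunit, stood at 18.5, 21.8, 15.4 and 16.3 CPM in control, 43.1, 39.2, 45.6 and 37.6 CPM in syngeneic and 55.2, 67.8, 64.7 and 71.3 CPM in allogeneic libraries. The same comparisons gave 1.20 ± 0.14, adjusted p = 6.89e-07, and 0.65 ± 0.13, adjusted p = 0.00189. The other MPN-domain subunit, Eif3h, stood at 157, 158, 155 and 168 CPM in control, 291, 286, 297 and 255 CPM in syngeneic and 480.4, 446, 449 and 444 CPM in allogeneic libraries. It had the smallest p of the eIF3 genes between the transplant groups (0.69 ± 0.07, adjusted p = 3.86e-07).

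The remaining eIF3 genes differed in size. Eif3m, a PCI-domain subunit, rose by 1.20 ± 0.11 in syngeneic against control and 0.52 ± 0.11 in allogeneic against syngeneic libraries. In the same order Eif3i rose by 0.84 ± 0.09 and 0.45 ± 0.09, Eif3k by 0.40 ± 0.09 and 0.58 ± 0.09, and Eif3a, the core scaffold, by 0.37 ± 0.09 and 0.43 ± 0.09. Eif3l rose between the transplant groups (0.34 ± 0.10, adjusted p = 0.0312), where leaving out any of 5 single libraries (syngeneic 1, 2 or 3, allogeneic 1 or 2) ends the call (adjusted p = 0.0535 to 0.104). The genes that did not pass in allogeneic against syngeneic were Eif3b at -0.10 ± 0.12, adjusted p = 0.654, Eif3c at -0.19 ± 0.08, adjusted p = 0.144, Eif3d at 0.21 ± 0.10, adjusted p = 0.173 and Eif3g at 0.15 ± 0.07, adjusted p = 0.159. Their 95% intervals ran from -0.38 to 0.18, -0.37 to 0.00, -0.01 to 0.43 and -0.01 to 0.31.

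Grouped after the values were seen, 7 of the 8 genes of the structural octamer (a, c, e, f, h, k, l and m) rose in allogeneic against syngeneic libraries. So did 1 of the 4 other subunits (b, d, g and i), where 10.1% of all genes rose. Eif3c was the octamer gene that did not pass. With a correction offset fitted to GC content and transcript length 5 of the 8 octamer genes rose, where 8.69% of all genes did. Eif3l (adjusted p = 0.163) and Eif3m (0.161) lost their calls there, and Eif3i (0.119) lost its call among the others. With library totals Eif3a (0.0705) and Eif3l (0.359) lost theirs. In syngeneic against control 7 of the 8 octamer genes and 3 of the 4 others rose, where 26.4% of all genes did. With the offset that comparison gave 5 of 8 and 4 of 4, against 24.9% of all genes. There the offset ended the calls of Eif3a (0.257) and Eif3k (0.114), and library totals those of Eif3a (0.0668) and Eif3b (0.163). With library totals Eif3c (-0.12) and Eif3d (-0.05) also turned negative in allogeneic against control.

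**Figure D3:**
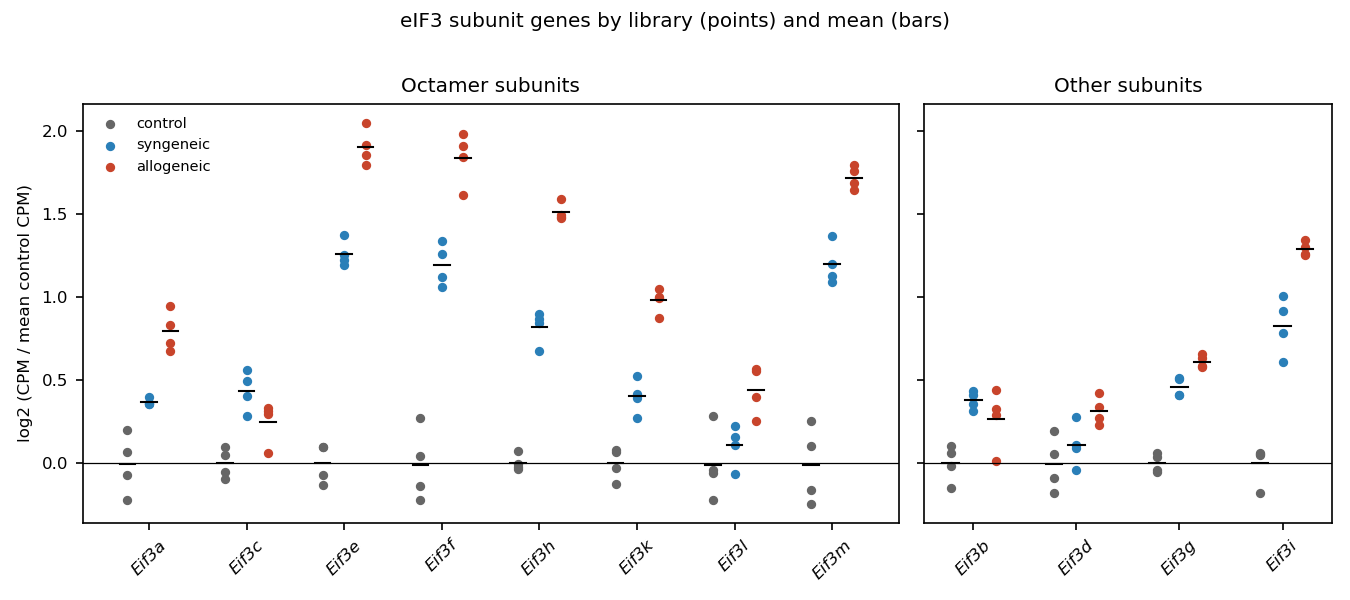
Level of the 12 tested eIF3 genes in each library (points) and their mean (bars), as log2 of CPM over the mean control CPM, for control (grey), syngeneic (blue) and allogeneic (red) libraries, with octamer subunits left and the others right. Eif3e, Eif3f, Eif3h and Eif3m separate into 3 rising levels, while Eif3b, Eif3c and Eif3d have overlapping syngeneic and allogeneic libraries.

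Among the eIF4 genes, whose products bind the cap and unwind the leader, changes went in both directions. Of 15 tested, 7 rose (46.7%) and 4 fell (26.7%) in syngeneic against control (median 0.36), where 26.4% of all genes rose and 25.6% fell. With allogeneic libraries instead 8 rose (53.3%) and 4 fell (26.7%; median 0.46), against 28.2% and 29.1% of all genes. Between the transplant groups 2 rose (13.3%) and 1 fell (6.67%; median 0.06), near the 10.1% and 6.38% of all genes. The scaffold genes went in opposite directions. Eif4g1, the canonical scaffold, stood at 131, 169, 131 and 146 CPM in control, 56.5, 52.3, 68.3 and 65.9 CPM in syngeneic and 54.5, 62.2, 73 and 56.1 CPM in allogeneic libraries. It fell in syngeneic against control without overlap (-1.25 ± 0.12, adjusted p = 1.04e-07), and the transplant groups overlapped (0.02 ± 0.12, 95% interval -0.26 to 0.29). Eif4g2, a related protein that lacks the eIF4E-binding region and serves cap-independent initiation, stood at 646, 639, 726 and 626 CPM in control, 1436, 1297, 1347 and 1356 CPM in syngeneic and 1229, 1133, 1150 and 1100 CPM in allogeneic libraries. It rose in syngeneic against control (1.04 ± 0.06, adjusted p = 1.89e-10) and was lower in allogeneic than in syngeneic libraries (-0.24 ± 0.06, adjusted p = 0.0111), a call that the GC and length offset ends (-0.08, adjusted p = 0.535). Eif4g3, another scaffold gene, gave 0.16 ± 0.09, adjusted p = 0.175 in syngeneic against control, which the offset places at 0.27 (0.0389).

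The helicase paralogs also parted. Eif4a1 stood at 244, 249.9, 201 and 196 CPM in control, 383, 446, 437 and 433 CPM in syngeneic and 462, 460.3, 488 and 426 CPM in allogeneic libraries. It rose in syngeneic against control (0.93 ± 0.08, adjusted p = 4.38e-08). Eif4a2 stood at 284, 319.7, 269.8 and 252 CPM in control, 191, 172, 162 and 169 CPM in syngeneic and 235, 205, 186 and 198 CPM in allogeneic libraries. It fell in syngeneic against control (-0.70 ± 0.09, adjusted p = 3.17e-06). Between transplant groups neither passed, at 0.11 ± 0.08, adjusted p = 0.435 and 0.25 ± 0.09, adjusted p = 0.0661. Eif4a2 shares exon sequence with Rfc4 on the opposite strand, and the sources used here do not give the strand setting of the counts. Eif4a3, a helicase of the exon junction complex, rose in syngeneic against control by 0.55 ± 0.08, as did Eif4h, an eIF4A cofactor, by 0.72 ± 0.09 (1.34 with the GC and length offset), whereas the other cofactor gene Eif4b fell by 0.58 ± 0.12.

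Each of the 3 cap-binding genes was called higher in at least 1 comparison. Eif4e stood at 122, 94.9, 116 and 108 CPM in control, 195, 159, 174 and 169.8 CPM in syngeneic and 193, 190.1, 184 and 178 CPM in allogeneic libraries. Syngeneic against control gave 0.66 ± 0.09, adjusted p = 4.99e-06, and allogeneic against syngeneic 0.10 ± 0.09, adjusted p = 0.544. Eif4e2, a cap-binding repressor, stood at 87.2, 98.6, 92.9 and 93.5 CPM in control, 104, 95.4, 106 and 102 CPM in syngeneic and 116, 129.8, 137 and 128 CPM in allogeneic libraries. It rose in allogeneic against syngeneic (0.32 ± 0.08, adjusted p = 0.0103), which library totals ends (0.12, adjusted p = 0.318). Eif4e3 stood at 21.8, 20.6, 14.5 and 16.9 CPM in control, 24.2, 27.9, 25 and 29.5 CPM in syngeneic and 46.1, 30.8, 36.5 and 34.1 CPM in allogeneic libraries. It rose in syngeneic against control (0.53 ± 0.17, adjusted p = 0.0125), a call that library totals (0.0821) and the offset (0.205) each end. Eif4ebp1, which sequesters eIF4E, stood at 22.6, 18.5, 21.5 and 24.6 CPM in control, 38.1, 37.6, 32.8 and 41 CPM in syngeneic and 52.7, 49.8, 53.5 and 52.5 CPM in allogeneic libraries and rose at both steps (0.78 ± 0.13, adjusted p = 4.4e-05 and 0.48 ± 0.12, adjusted p = 0.0112). The second of these is lost with library totals (adjusted p = 0.126) and with the GC and length offset (0.107). Eif4ebp2, another 4E-binding protein gene, was at 6.31 ± 1.95 CPM in control, 8.08 ± 1.15 CPM in syngeneic and 8.42 ± 1.44 CPM in allogeneic libraries. Eif4ebp3 was at 5.10 ± 1.18 CPM in control, 5.24 ± 1.02 CPM in syngeneic and 5.25 ± 1.55 CPM in allogeneic libraries (SD, n = 4). Neither was called in edgeR's quasi-likelihood test, but the GC and length offset calls Eif4ebp2 higher in syngeneic (0.70, adjusted p = 0.042) and allogeneic libraries (0.89, 0.0102) against control. Eif4enif1, which carries eIF4E to the nucleus and to RNA bodies, stood at 44.9, 46.3, 42.7 and 57.4 CPM in control, 11.1, 11.1, 22.5 and 14.8 CPM in syngeneic and 11.5, 12.2, 22.1 and 12.2 CPM in allogeneic libraries. It fell in syngeneic against control (-1.69 ± 0.25, adjusted p = 1.39e-05), the largest fall of the set there.

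Within a library, ratios of counts do not depend on how libraries are scaled, though a correction made gene by gene can change them. They are shown without a test. Eif4a1 counts per Eif4a2 count were 0.791 ± 0.047 in control, 2.46 ± 0.312 in syngeneic and 2.24 ± 0.275 in allogeneic libraries. Eif4g2 per Eif4g1 was 4.64 ± 0.772, 22.6 ± 2.89 and 19.0 ± 2.84, and Eif4e per Eif4ebp1 was 5.07 ± 0.483, 4.70 ± 0.592 and 3.58 ± 0.197. The ratio of Eef2 to its kinase Eef2k was 5.53 ± 0.402, 15 ± 2.30 and 30.1 ± 5.20, and that of Eef1a1 to Eef2 2.22 ± 0.166, 3.61 ± 0.431 and 4.76 ± 0.081. Eif2s1 counts per Eif2b4 count were 1.42 ± 0.172, 6.83 ± 0.633 and 11.4 ± 1.53, and Eif3e per Eif3b 2.82 ± 0.429, 5.17 ± 0.475 and 8.72 ± 0.656. The GC and length offset turns the direction of some ratios. In syngeneic against control it gives a smaller rise for Eef1a1 (0.58) than for Eef2 (0.87), and for Eif3e (0.73) than for Eif3b (1.06). In allogeneic against control it gives 1.06 for Eef1a1 against 1.23 for Eef2, and 1.13 for Eif3e against 1.01 for Eif3b. Except for Eif4e per Eif4ebp1, control libraries did not overlap either transplant group in any of these ratios. The pairs were chosen after values were seen.

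**Figure D4:**
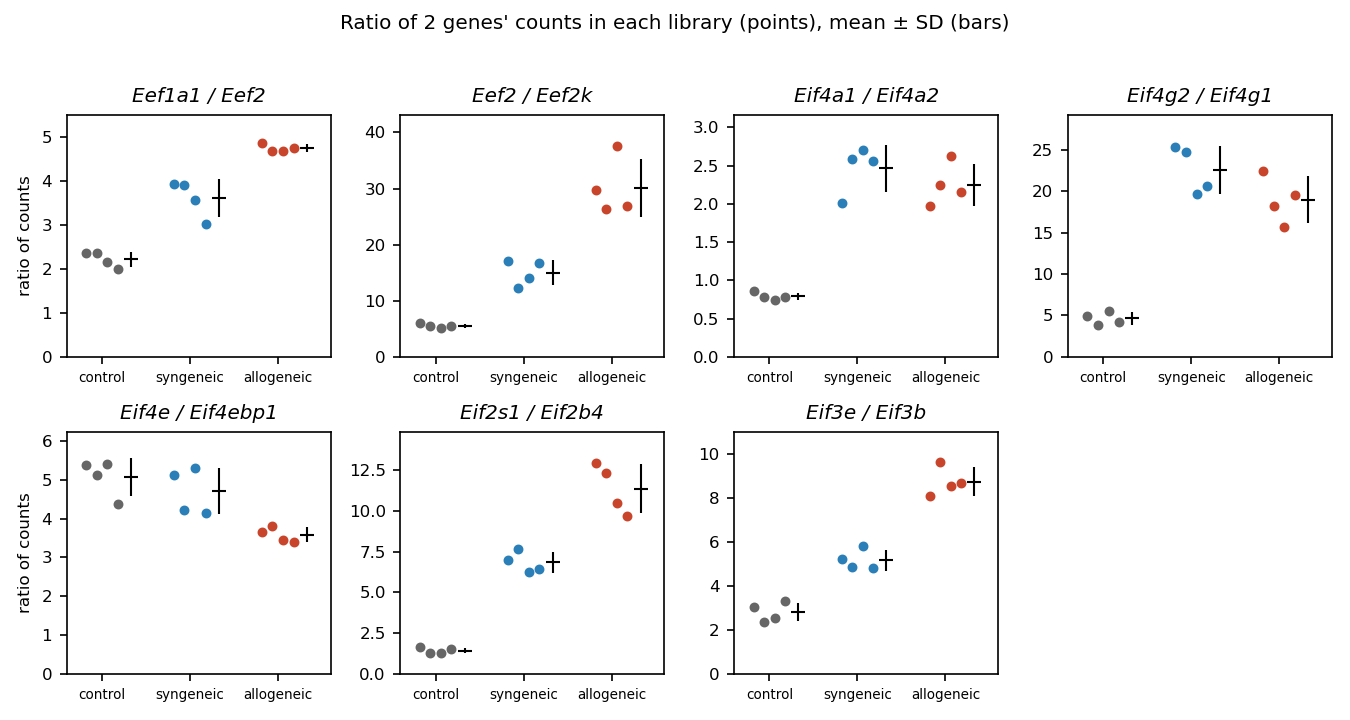
Ratio of the counts of 2 genes in each library (points) with mean ± SD (bars) on linear axes from 0, for control, syngeneic and allogeneic libraries. Eef2 to Eef2k is lowest in control and highest in allogeneic libraries without overlap, and Eif4a1 to Eif4a2 is higher in both transplant groups than in control.

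Genes for the delivery of initiator tRNA were called at shares close to those of all genes. Of 9 tested eIF2 and eIF2B genes, 3 rose (33.3%) and 2 fell (22.2%) in either transplant group against control, where 26.4% and 25.6% of all genes did for syngeneic and 28.2% and 29.1% for allogeneic libraries. Between the transplant groups 1 rose and 1 fell (11.1% each, against 10.1% and 6.38%). Eif2s1, eIF2 alpha, the subunit that the stress kinases phosphorylate, stood at 103, 91.9, 90.4 and 91.3 CPM in control, 249.7, 254, 249 and 255 CPM in syngeneic and 319, 279.6, 344 and 305 CPM in allogeneic libraries. It rose without overlap in syngeneic against control (1.42 ± 0.08, adjusted p = 5.47e-11) and by 0.31 ± 0.07, adjusted p = 0.00667 in allogeneic against syngeneic, which library totals ends (adjusted p = 0.304) as does the GC and length offset (0.0837). Eif2s2, eIF2 beta, rose in syngeneic against control (0.83 ± 0.11, adjusted p = 3.65e-06) and gave 0.27 ± 0.11, adjusted p = 0.0964 between the transplant groups. Eif2a, a separate factor that can deliver initiator tRNA without eIF2, rose in syngeneic against control (0.99 ± 0.14, adjusted p = 1.12e-05), and its exons overlap those of Serp1 on the other strand.

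The exchange factor eIF2B, which phosphorylated eIF2 inhibits, had 2 genes that fell and 3 without a call in syngeneic against control. Eif2b2, a regulatory subunit, stood at 48.2, 33.8, 39.4 and 35.6 CPM in control, 16.6, 21.6, 17.2 and 16.5 CPM in syngeneic and 12.2, 14, 16.1 and 18.6 CPM in allogeneic libraries. Its syngeneic libraries differed from control by -1.12 ± 0.17, adjusted p = 2.67e-05, and allogeneic and syngeneic libraries overlapped (-0.24 ± 0.17). Eif2b4 stood at 63.5, 71.4, 71.2 and 60.5 CPM in control, 35.7, 33.1, 39.7 and 39.7 CPM in syngeneic and 24.6, 22.7, 32.9 and 31.4 CPM in allogeneic libraries. It fell without overlap in syngeneic against control (-0.85 ± 0.14, adjusted p = 3.77e-05; -0.32, adjusted p = 0.0581 with the GC and length offset). In allogeneic against syngeneic its call (-0.41 ± 0.14, adjusted p = 0.0455) is lost with RLE factors, limma-voom, no filter or only the groups compared (adjusted p = 0.0554 to 0.0719) and when any of 5 single libraries is left out (syngeneic 1, 3 or 4, allogeneic 1 or 2; 0.0681 to 0.138). Eif2b4 overlaps Snx17 on the opposite strand. The catalytic subunit gene Eif2b5 gave 0.19 ± 0.19, adjusted p = 0.424 in syngeneic against control, which the offset calls higher (0.60, adjusted p = 0.0137). Eif2b1 and Eif2b3 gave 0.33 ± 0.17, adjusted p = 0.107 and 0.28 ± 0.14, adjusted p = 0.107. Eif2d, a factor for unusual initiation and recycling, gave -0.14 ± 0.17, adjusted p = 0.533 and, with the offset, 0.29 (0.201).

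Start selection genes rose in every case in syngeneic against control (5 of 5 tested), where 26.4% of all genes rose. Between the transplant groups 1 of 5 rose (20%), against 10.1% of all genes. Eif1, which guards against wrong start codons, stood at 692, 600.4, 615 and 678 CPM in control, 1120, 1039, 1054 and 1025 CPM in syngeneic and 988, 963, 989.5 and 969 CPM in allogeneic libraries. Its syngeneic libraries differed from control by 0.71 ± 0.06, adjusted p = 1.46e-08. Every allogeneic library was below every syngeneic library for Eif1, at -0.12 ± 0.06, adjusted p = 0.217, which is not called here but is called with the GC and length offset (-0.35, adjusted p = 0.000156) or with library totals (-0.32, 0.000447). Its paralog Eif1b stood at 66.2, 65, 72.7 and 73.7 CPM in control, 102, 86.7, 78 and 82.5 CPM in syngeneic and 79.5, 73.3, 82.8 and 74.6 CPM in allogeneic libraries. Syngeneic libraries were higher than control by 0.33 ± 0.10, adjusted p = 0.00999, a call that ends without syngeneic 1 (0.0507), with library totals (0.183) and with the offset (0.188). Eif1a, an eIF1A gene, stood at 63.2, 55.8, 55.2 and 51.1 CPM in control, 90.3, 96, 79.5 and 82.2 CPM in syngeneic and 93.7, 99.1, 122 and 128 CPM in allogeneic libraries. It rose in both comparisons (0.63 ± 0.11, adjusted p = 0.000156 and 0.35 ± 0.11, adjusted p = 0.0422). The second call is lost with library totals (adjusted p = 0.366), with only the groups compared (0.0508) and when any of 5 single libraries is left out (syngeneic 1, 3 or 4, allogeneic 3 or 4; 0.0665 to 0.143), and the GC and length offset ends both calls (0.309 and 0.302). Eif1ax, the X-linked eIF1A gene, rose by 1.09 ± 0.17, and Eif1ad, an eIF1A-domain protein, by 0.46 ± 0.14 in syngeneic against control, of which the second is lost with library totals (0.0663).

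Of 5 tested genes for eIF5, eIF5A, eIF5B and eIF6, 3 rose (60%) in syngeneic against control and 4 (80%) in allogeneic against control. The shares of all genes that rose there were 26.4% and 28.2%. In allogeneic against syngeneic 1 of the 5 rose (20%), against 10.1% of all genes. Eif5a, whose product needs hypusine to relieve stalled ribosomes, stood at 237, 208, 217 and 178 CPM in control, 313, 335, 319 and 341 CPM in syngeneic and 385, 378, 416 and 359 CPM in allogeneic libraries. Its syngeneic libraries differed from control by 0.64 ± 0.08, adjusted p = 2.95e-06. Between transplant groups it gave 0.24 ± 0.08, adjusted p = 0.056. RLE factors, the filter at 1 CPM, DESeq2, limma-voom and the fit of only those groups place that p under 0.05 (0.0199 to 0.0498). With the GC and length offset Eif5a gave 0.08 (adjusted p = 0.497). Its paralog Eif5a2 stood at 3.15, 8.20, 3.12 and 2.30 CPM in control, 12, 11.5, 15.5 and 10.9 CPM in syngeneic and 5.64, 4.46, 8.69 and 10.8 CPM in allogeneic libraries. It rose in syngeneic against control (1.58 ± 0.38, adjusted p = 0.00193). In allogeneic against control it gave 0.82 ± 0.38, adjusted p = 0.0709, and without control 2 it gave 1.36 (adjusted p = 0.00244). Eif5b, the subunit-joining GTPase, stood at 64.6, 69.7, 67.2 and 70.7 CPM in control, 86.7, 108, 104 and 91 CPM in syngeneic and 169, 136, 123 and 149 CPM in allogeneic libraries. It rose at both steps (0.52 ± 0.10, adjusted p = 0.000406 and 0.57 ± 0.10, adjusted p = 0.000626). The first call is lost with the GC and length offset (0.19, adjusted p = 0.133). Eif5, the GTPase activator of eIF2, gave 0.35 ± 0.12, adjusted p = 0.022 in allogeneic against control, a call lost without control 1, control 3, allogeneic 1 or allogeneic 4 (0.0607 to 0.0885) and reversed in sign with the offset (-0.07) and with library totals (-0.03). Eif6, which keeps the large subunit from joining early, gave 0.36 ± 0.11, adjusted p = 0.00822, and with library totals -0.02.

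Per kilobase of annotated transcript, the order of levels within control microglia ran from Eef1a1 at 967 CPM per kilobase through Eif1 at 489, Eef2 at 253, Eif5a at 146 and Eif4a1 at 126 down to Eif4ebp2 at 1.09, Eif5a2 at 0.834 and Eef1a2 at 0.0342 CPM per kilobase. Eif3 genes, whose products join the complex in equal numbers, ranged from Eif3h at 123 to Eif3f at 7.17 CPM per kilobase, with lengths taken from an annotation of another build than that of the counts.

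The regulators of the pathway were read from lists, by counts of calls. Of the 4 kinases that phosphorylate eIF2 alpha, 1 rose (25%) in allogeneic against syngeneic libraries, where 10.1% of all genes did. This was Eif2ak2 (PKR), the interferon-induced sensor of double-stranded RNA, which slows initiation. It stood at 26.9, 25.9, 23.8 and 35.1 CPM in control, 53.6, 77.6, 71.1 and 79.9 CPM in syngeneic and 166, 165, 179.9 and 153 CPM in allogeneic libraries. Its groups did not overlap (1.34 ± 0.13, adjusted p = 1.52e-07 and 1.23 ± 0.13, adjusted p = 1.43e-06). In syngeneic against control 1 kinase gene rose (25%) and 2 fell (50%), against 26.4% and 25.6% of all genes. Those that fell were Eif2ak4 (-1.08 ± 0.26, adjusted p = 0.00194) and Eif2ak1 (-0.50 ± 0.19, adjusted p = 0.0375). Of 20 integrated stress response genes, 4 rose (20%) and 7 fell (35%) in syngeneic against control, where 26.4% and 25.6% of all genes did, and 3 rose in allogeneic against syngeneic (15% against 10.1% of all genes). Nupr1, a stress-induced chromatin protein, gave 1.08 ± 0.14, adjusted p = 1.7e-05 there and Cebpb, a transcription factor, 1.08 ± 0.30, adjusted p = 0.0167, which leaving out syngeneic 1 ends (0.0536).

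Among 18 genes of mTORC1 and cap-binding control, 3 rose (16.7%) and 7 fell (38.9%) in syngeneic against control, where 26.4% of all genes rose and 25.6% fell. With allogeneic libraries against control 3 rose (16.7%) and 9 fell (50%), against 28.2% and 29.1% of all genes. Between the transplant groups 2 fell (11.1% against 6.38%). Rheb, the GTPase that switches mTORC1 on, stood at 30.5 ± 4.09 CPM in control, 99.6 ± 8.04 CPM in syngeneic and 91.7 ± 17.7 CPM in allogeneic libraries. It rose in syngeneic against control (1.71 ± 0.14, adjusted p = 1.02e-08), while Rps6kb2, an S6 kinase gene, gave -2.53 ± 0.27, adjusted p = 3.95e-07. Mknk1, a kinase of eIF4E, stood at 283, 243, 275 and 207 CPM in control, 186, 174, 179.6 and 192 CPM in syngeneic and 114, 130.2, 115 and 123 CPM in allogeneic libraries. It fell in allogeneic against syngeneic (-0.61 ± 0.09, adjusted p = 9.51e-05). Of 8 poly(A)-binding protein genes and partners, 5 rose (62.5%) and 2 fell (25%) in syngeneic against control, where 26.4% and 25.6% of all genes did. In allogeneic against syngeneic 1 rose (12.5%) and 2 fell (25%), against 10.1% and 6.38% of all genes. Pabpc1, which links the tail to eIF4G, stood at 150.5, 194, 201 and 202 CPM in control, 375, 423, 434 and 436 CPM in syngeneic and 617, 588, 631 and 699.7 CPM in allogeneic libraries. It rose in allogeneic against syngeneic (0.61 ± 0.09, adjusted p = 6.48e-05), and its paralog Pabpc4 fell (-0.76 ± 0.19, adjusted p = 0.00746). Of 8 tested termination, recycling and rescue genes, 5 rose in syngeneic against control (62.5% against 26.4% of all genes), among them Denr (1.04 ± 0.10, adjusted p = 1.53e-07), a recycling factor, and Etf1 (1.11 ± 0.15, adjusted p = 4.76e-06), which reads stop codons. Of 83 tested cytosolic ribosomal protein genes, 77 rose between the transplant groups (92.8%) with a median of 0.88. There 18 of 56 factor genes rose (32.1%) with a median of 0.18, against 10.1% of all genes with a median of -0.015. The rise of ribosomal protein genes was not particular to this comparison. In syngeneic and in allogeneic against control 77 of the 83 rose as well, against 26.4% and 28.2% of all genes. The difference between ribosomal protein and factor genes was not tested.

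Fold changes of all genes followed GC content in the comparisons with control, with a Spearman rho across 12613 genes of -0.30 for syngeneic and -0.28 for allogeneic libraries, against -0.04 between the transplant groups. With transcript length rho was -0.06, -0.12 and -0.21 in the same order, so it was strongest between the transplant groups. The median length was 2547.5 bases for the factor genes and 3026 for all genes. Among the 56 factor genes rho with GC content was -0.44, -0.44 and -0.31, and 0.06, -0.03 and -0.27 after an offset fitted to GC content and length over all genes; genes of one library share its depth and composition, so no p is given. With the offset 12 genes were called higher and 4 lower between the transplant groups, where 8.69% of all genes were higher and 7.08% lower. Against control, 35 were higher and 6 lower for syngeneic and 39 and 7 for allogeneic libraries. The shares of all genes there were 24.9% and 21.6% for syngeneic and 26% and 25.9% for allogeneic libraries. Individual values moved in both directions: in syngeneic against control Eef2 went from 0.13 to 0.87 (adjusted p = 1.45e-08), and in allogeneic against control Eif3e went from 1.91 to 1.13 and Eif4g1 from -1.23 to -0.63. The part of the GC and length dependence in the results was not tested beyond this offset.

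**Figure D5:**
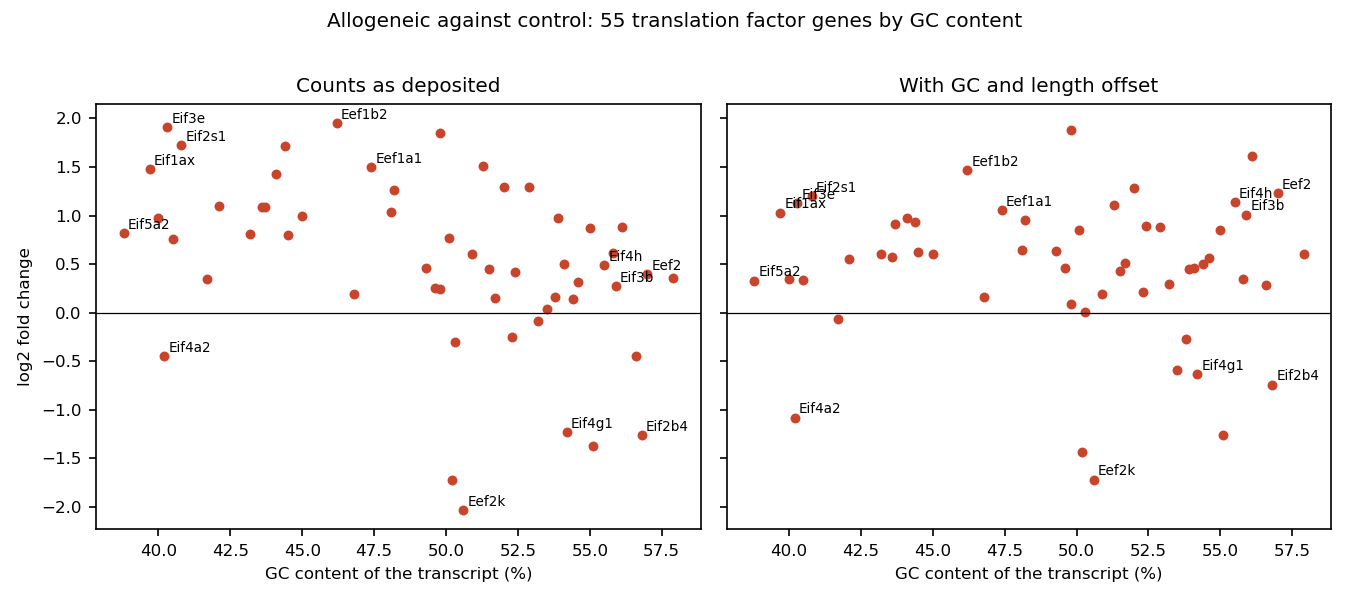
Log2 fold change in allogeneic against control libraries against GC content (percent of transcript bases) for 55 factor genes, before and after the offset for GC content and length. Before the offset, genes of low GC content tend to lie higher; after it, rho is near 0.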

How the data were processed

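Total RNA of microglia sorted by FACS was isolated with the Picopure kit, RNA with an integrity value of 8 or more was used and libraries followed Illumina protocols, per the labels' protocols. The submitters' processing notes name Trimmomatic 0.36, STAR 2.5.2b and the build mm9. The deposited table holds whole-number counts per gene symbol for the 12 libraries, made by the authors. The sources used here do not give the counting tool, annotation, strand setting or treatment of shared reads, so genes that overlap another gene (10 of the 59, 9 of them on the opposite strand: Eef2kmt, Eif1ad, Eif2a, Eif2b4, Eif2d, Eif3j1, Eif3m, Eif4a2 and Eif5b) or have near-identical copies are uncertain. Every column of values was used.

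In edgeR 4.0.16 (R 4.3.3), 18018 genes of the deposited counts had any reads, and filterByExpr (minimum count 10) left 12695 for testing. CPM and fold changes used TMM factors, a robust quasi-likelihood fit with 3 group means on all 12 libraries, and Benjamini-Hochberg adjustment over all tested genes. SEs are the log2 fold change over the square root of the test's F value, and intervals are at 95%. The intervals use the residual degrees of freedom only, which are fewer than the test uses. They are therefore wider than the test implies and can reach 0 where the unadjusted p is under 0.05. When all 4 libraries of a group held 0 counts, a level up to 0.0179 CPM was possible in control and syngeneic and 0.0217 CPM in allogeneic libraries, for counting error only. The common dispersion was 0.147, and replicate libraries correlated at a Spearman rho of 0.975 to 0.984. Nothing in the labels gives a batch, and p-values measure the spread between the 4 mice of each group.

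Alternatives were RLE factors, library totals, no filter, 1 CPM in 4 libraries, DESeq2 1.42.0, limma-voom (limma 3.58.1), only the compared groups, the replicate number as a block, an offset for GC content and length (loess span 0.3), and each library left out. The method was tested on simulated data. Gene lengths, GC content and overlaps came from a GENCODE annotation of GRCm38; start sequences came from RefSeq (GRCm38.p6). The members and lists were chosen with earlier results of these data known. Values per library follow a rule: per comparison the 4 largest rises and falls among called genes whose mean log2 CPM reached 2, the smallest p of each role, and paralog groups; other lists give up to 2 genes of smallest p. Pairs for ratios, the eIF3 grouping and the CCGGAAG search were chosen after values were seen.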

Additional observations from a re-analysis of the deposited data

Results flagged for a closer look

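In 12 of 168 groups of 4 libraries, 1 library lay far from the other 3 by Dixon's criterion at 95%, the gap to the nearest library over the group's range. Chance alone flags about 1 in 20 groups. No explanation was weighed for any of them.

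Control 2 stood high for the weakly expressed Eef1a2, the elongation factor paralog, at 0.266 CPM against 0 to 0.0196 CPM, and for Eif5a2 at 8.20 CPM against 2.30 to 3.15 CPM, and low for Eif3i at 96.7 CPM against 113.5 to 114.4 CPM. Control 1 was high for Eif2s1 at 103 CPM against 90.4 to 91.9 CPM.

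In the syngeneic group, replicate 2 was high for Eif2b2 at 21.6 CPM against 16.5 to 17.2 CPM, replicate 3 for Eif2a at 56.7 CPM against 43.4 to 45.6 CPM and for Eif4a3 at 206 CPM against 175 to 178 CPM, and replicate 1 for Eif3a at 172 CPM against 168 to 168.3 CPM.

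In the allogeneic group, replicate 3 was high for Eif4enif1 at 22.1 CPM against 11.5 to 12.2 CPM and for Eif2s2 at 262 CPM against 209 to 216 CPM, replicate 1 for Eif3h at 480.4 CPM against 444 to 449 CPM, and replicate 4 low for Eif3c at 181 CPM against 214 to 219 CPM.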

How the results depend on the processing

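Of the called factor genes, 9 of 21 between the transplant groups, 31 of 40 for syngeneic and 33 of 44 for allogeneic libraries against control kept their call and direction under every alternative tried. In allogeneic against syngeneic, library totals gave 11 higher and 8 lower, where 6.65% of all genes were higher and 16.6% lower. The GC and length offset with the replicate block gave 11 higher, against 8.32% of all genes. The offset alone gave 12 higher and 4 lower, against 8.69% and 7.08% of all genes. With library totals the summed CPM was 9246 in control and 13330 in allogeneic libraries. Without Eef1a1 the TMM-scaled sums were 6435, 9129 and 10330 CPM. Leaving out 1 library at a time gave 16 to 18 higher and 2 to 3 lower in allogeneic against syngeneic. The shares of all genes there were 8.31% to 9.3% and 5.16% to 5.89%. In syngeneic against control it gave 32 to 34 higher and 7 lower, against 24.2% to 24.9% and 23.1% to 23.6% of all genes. In allogeneic against control it gave 34 to 38 higher and 6 to 8 lower, against 26% to 26.7% and 26.6% to 27.8% of all genes.

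Values that changed sign and passed the test before or after the change were, in allogeneic against control, with library totals, Eif3c (-0.12), Eif3d (-0.05), Eif4g3 (-0.22), Eif5 (-0.03) and Eif6 (-0.02); with the offset, and with the offset and the replicate block, Eefsec (0.29 and 0.29), Eif1b (-0.27 and -0.28), Eif4b (0.01 and 0.00), Eif5 (-0.07 and -0.06) and the mitochondrial factor Mtif3 (0.48 and 0.48). In syngeneic against control the offset and the offset with the block did so for Eefsec (0.43 and 0.45) and Mtif3 (0.10 and 0.10). Sign changes between values of which neither passed are not listed. The cause was not tested.

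Same-numbered libraries did not deviate together (correlations of -0.015 to 0.032), so the replicate numbers were not taken to pair samples. With the replicate block alone, 18 genes were higher and 3 lower between the transplant groups, against 9.57% and 6.2% of all genes. Against control it gave 33 and 7 for syngeneic and 36 and 8 for allogeneic libraries. The shares of all genes there were 26% and 25.3% for syngeneic and 27.7% and 29.1% for allogeneic libraries. Eif1a lost its call between the transplant groups (adjusted p = 0.0775) and Eif4a2 gained one (0.0439). Depth limits Eef1a2, at 0 to 24 counts per library. With it, Eif4ebp2 (205 to 366 counts) and Eif5a2 (89 to 566 counts) were the least abundant tested factor genes per kilobase. Eif4ebp3 had 111 to 304 counts. With 4 libraries a group small changes can go uncalled.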

Other observations

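The enzymes that complete elongation factors after translation were measured as a list of 9 genes, covering diphthamide, the modified histidine of eEF2, and hypusine, the modified lysine of eIF5A. In syngeneic against control 1 rose and 5 fell (55.6% against 25.6% of all genes), with a median of -0.81. Dph2, an early enzyme of diphthamide synthesis, was at 26.2 ± 7.70 CPM in control, 8.11 ± 3.18 CPM in syngeneic and 6.39 ± 1.73 CPM in allogeneic libraries (SD, n = 4; -1.69 ± 0.29, adjusted p = 7.74e-05 in syngeneic against control), and Dohh, which completes hypusine, was at 26.2 ± 2.87 CPM in control, 13.6 ± 1.51 CPM in syngeneic and 15.3 ± 3.15 CPM in allogeneic libraries (-0.95 ± 0.18, adjusted p = 0.000251). In allogeneic against syngeneic Dph2 gave -0.34 ± 0.28, adjusted p = 0.486 and Dhps, the first hypusine enzyme, 0.37 ± 0.19, adjusted p = 0.203.

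Of 9 mitochondrial translation factors, which serve the ribosomes of the organelle, 1 rose (11.1%) and 3 fell (33.3%) in syngeneic against control, where 26.4% and 25.6% of all genes did, and the elongation factor G paralogs parted. Gfm1, the mitochondrial translocase, was at 14.1, 14.4, 16.7 and 23 CPM in control, 59.2, 34.2, 46.7 and 43.8 CPM in syngeneic and 60.2, 60.2, 75.4 and 48.5 CPM in allogeneic libraries (1.43 ± 0.19, adjusted p = 4.44e-06 in syngeneic against control). Gfm2, which recycles mitochondrial ribosomes, was at 107, 138, 134 and 129 CPM in control, 26.2, 15.6, 22.4 and 22.4 CPM in syngeneic and 15.8, 19.9, 25.1 and 17.2 CPM in allogeneic libraries (-2.55 ± 0.17, adjusted p = 6.37e-10). Control libraries overlapped neither transplant group for either gene, and between the transplant groups Gfm1 gave 0.41 ± 0.18, adjusted p = 0.15.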
